A study of Homo sapiens with 6 samples.

Results

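The genes described here set the pace of the G1 phase of the cell cycle: the D-type cyclins CCND1, CCND2 and CCND3, their kinase partner CDK6, the E-type cyclin CCNE1, and the CDK inhibitors CDKN1A (p21) and CDKN1B (p27). Each gene stands for a fixed hg19 window, and its members are the H3K27ac peaks that overlap that window. The 7 windows span 800 kb together and hold 57 of the 56420 M2 peaks and 41 of the 31444 THP-1 peaks. The windows are chr11:69420001-69500000 for CCND1, chr12:4350001-4450000 for CCND2, chr6:41880001-42040000 for CCND3, chr7:92210001-92500000 for CDK6, chr19:30280001-30330000 for CCNE1, chr6:36600001-36680000 for CDKN1A and chr12:12850001-12890000 for CDKN1B.

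The data are chromatin immunoprecipitation sequencing of M2 macrophages, phagocytes in the state also called alternative activation, and of THP-1, a line from a human monocytic leukaemia that the labels call monocytes. Both were cultured in RPMI medium with 10% fetal bovine serum. The labels name no treatment, time or genotype for either, and the cells from which the macrophages were made are not given in the sources used here. Of the 6 libraries, only those of H3K27ac (1 from M2, 1 from THP-1) enter here, through their peak lists. Those of YY1 and of input were not analysed here. H3K27ac is acetylation of histone H3 at lysine 27, a mark of active promoters and enhancers. Each cell type has 1 such library, so differences have no replicate check, and the text gives sizes and counting intervals but no test and no p-value. Because no hg19 gene annotation was used, no peak is assigned to a promoter, exon or intron, and the cell types were not checked against marker genes.

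As background, mitogens raise the D-type cyclins, which bind CDK4 or CDK6 and begin the phosphorylation of the retinoblastoma protein. Cyclin E with CDK2 completes that phosphorylation, E2F factors are released and the cell enters S phase. The inhibitors p21 and p27 bind cyclin and CDK complexes and hold this step back, and p21 is a classical target of p53. Macrophages that mature from monocytes largely stop dividing.

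Neighbouring genes lie near several members, and a peak in a window may belong to one of them. In the RefSeq gene order of GRCh38.p14, CCND2 is followed by TIGAR, CCND3 lies between BYSL and TAF8, CDKN1A is followed by RAB44, and CDKN1B is followed by APOLD1. CCND1 has MYEOV before it, CCNE1 lies between C19orf12 and URI1, and CDK6 lies between FAM133B and SAMD9.

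Promoter sequences are shown for a kinase, a cyclin and an inhibitor. Their windows held peaks in both lists, as all 7 windows did. The sequences come from RefSeq on GRCh38.p14, 250 bases before to 50 after the gene start, 5′ to 3′. The table held 8 promoters for 5 of the 7 genes, and CCND1 and CCND2 were not among them. Capitals mark the GC box, GGGCGG or its reverse complement CCGCCC, and the YY1 core CCATNTT or its reverse complement AANATGG. YY1 is the transcription factor that the study profiled. Because the peak positions are in hg19, these promoters could not be placed among the peaks.
CDK6, chr7:92836524-92836823, minus strand: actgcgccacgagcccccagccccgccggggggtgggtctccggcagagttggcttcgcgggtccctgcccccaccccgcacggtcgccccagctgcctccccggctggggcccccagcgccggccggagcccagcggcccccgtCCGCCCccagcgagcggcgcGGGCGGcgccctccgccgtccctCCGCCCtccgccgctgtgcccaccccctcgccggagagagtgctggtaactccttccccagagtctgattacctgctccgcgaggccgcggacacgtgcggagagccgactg
CCNE1, chr19:29811741-29812040, plus strand: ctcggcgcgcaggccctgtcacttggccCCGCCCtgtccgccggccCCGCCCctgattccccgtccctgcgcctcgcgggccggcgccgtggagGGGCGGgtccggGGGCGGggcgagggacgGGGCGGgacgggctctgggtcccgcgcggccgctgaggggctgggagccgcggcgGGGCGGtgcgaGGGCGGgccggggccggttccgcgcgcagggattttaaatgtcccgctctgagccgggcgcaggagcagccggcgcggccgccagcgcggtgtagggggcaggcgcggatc
CDKN1B, chr12:12717118-12717417, plus strand: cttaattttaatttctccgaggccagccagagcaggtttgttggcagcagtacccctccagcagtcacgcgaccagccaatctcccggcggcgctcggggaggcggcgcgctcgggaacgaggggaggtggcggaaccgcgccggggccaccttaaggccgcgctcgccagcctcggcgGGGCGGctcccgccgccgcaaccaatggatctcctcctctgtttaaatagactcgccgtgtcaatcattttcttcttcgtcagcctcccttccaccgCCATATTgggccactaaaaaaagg

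The CCNE1 promoter held 7 GC boxes, the CDK6 promoter shown 3 and the CDKN1B promoter 1, and 45.0% of all 35116 RefSeq promoters of this length held at least 1. Of the promoters not shown, the other CDK6 promoter held 0, the CCND3 promoters 5, 4 and 0, and the CDKN1A promoter 4. A YY1 core was found in the CDKN1B promoter, where it overlaps an ATTGG (a reversed CCAAT box), and in 1 of the 3 CCND3 promoters. Of all promoters, 15.6% held that motif on either strand. Other motifs searched on both strands were CCAAT, present in 34.6% of all promoters, the E2F forms TTCCCGC (6.55%) and TTGGCGC (3.04%), and the E-box CACGTG (7.26%). The CDKN1B promoter held 3 CCAAT boxes, the CDK6 promoter shown held 1 E-box, and neither E2F form occurred in the 8 promoters. These matches describe letters and show no binding.

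Over all 7 windows, the cover by H3K27ac peaks was 76.9 kb for M2 and 54.2 kb for THP-1, a ratio of 1.42. Over the whole lists the ratio was 2.19 (M2 61.3 Mb, THP-1 28.0 Mb). The M2 list therefore extended further in these windows, but by a smaller factor than in the lists as a whole. Without the CDK6 window, which held the most covered sequence, the cover was 34.4 kb for M2 and 18.7 kb for THP-1, a ratio of 1.84. In lists of equal length, the peaks of highest -log10 q, the ratio was 1.16 in the windows and 1.70 over the lists.

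The windows differed among themselves. The ratio of covered sequence was 3.67 at CCND1, 3.61 at CCND3, 1.69 at CCND2, 1.40 at CDKN1B, 1.35 at CDKN1A, 1.20 at CDK6 and 1.09 at CCNE1. M2 covered at least 2 times as much as THP-1 in 2 of the 7 windows, CCND1 and CCND3. Among all 16256 bins of 100 kb with a peak in either list, 61.8% met that limit. THP-1 covered at least 2 times as much as M2 in 0 of 7 windows, against 9.45% of the bins. Bins with peaks of 1 list only count in both shares, whereas all 7 windows held peaks of both lists. In the 10480 bins with peaks of both lists the median ratio was 2.01 (quartiles 1.18 and 3.51). In lists of equal length the order turned at CDK6 (0.970), CDKN1A (0.878) and CCNE1 (0.685), so a longer M2 cover was not stable in those 3 windows. CCND1, CCND3 and CDKN1B kept a ratio above 1 in every setting that gave a value, and CCND2 in those that left it a peak in each list.

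**Figure D1:**
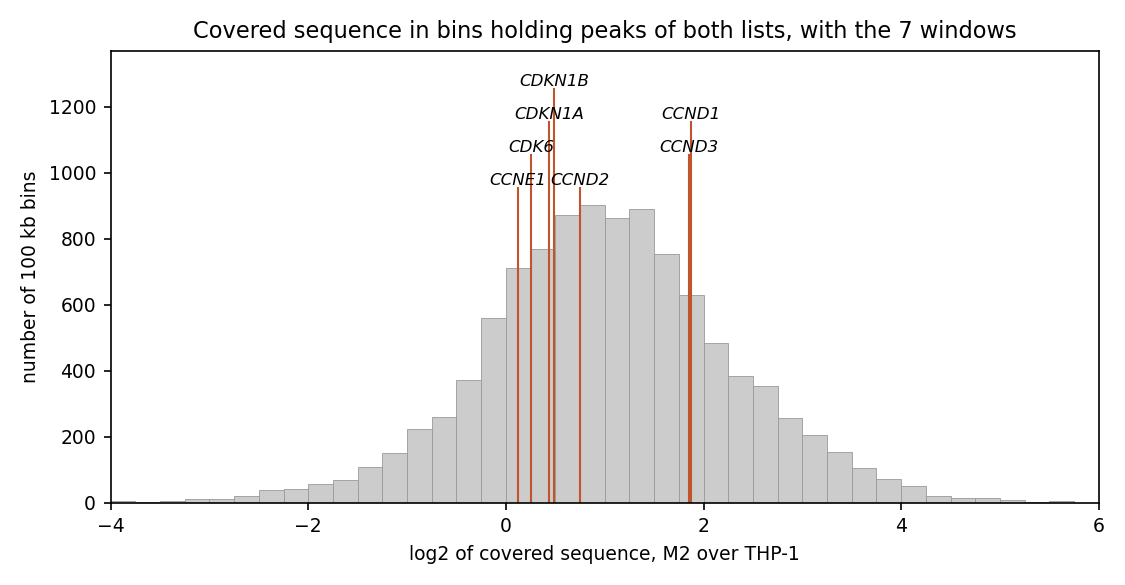
Histogram of log2 covered sequence, M2 over THP-1, in the 10480 bins of 100 kb that hold peaks of both lists, with vertical lines at the 7 gene windows. CCND1 and CCND3 lie right of the bin median, which is a ratio of 2.01, and the other 5 windows lie left of it.

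The inhibitor and CDK6 windows were densely acetylated in both cell types. Peaks covered 22.3% of the CDKN1B window in M2 and 15.9% in THP-1 cells, a density above that of 99.4% of the bins in M2 and 99.5% in THP-1 cells. For CDK6 the cover was 14.6% in M2 and 12.2% in THP-1 cells, above 96.9% and 98.9% of the bins. Both cell types were ranked over the same bins, those with a peak in either list, so some bins had no cover in the cell type ranked. The CDKN1A window was covered to 10.8% in M2 and 8.02% in THP-1 cells, above 93.5% and 96.8% of the bins. CCND2 had the least, 0.905% in M2 and 0.537% in THP-1 cells, and the median bin held 2.36 kb of M2 and 0.847 kb of THP-1 cover. The windows were drawn around genes and the bins were not, so these ranks describe the windows only.

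**Figure D2:**
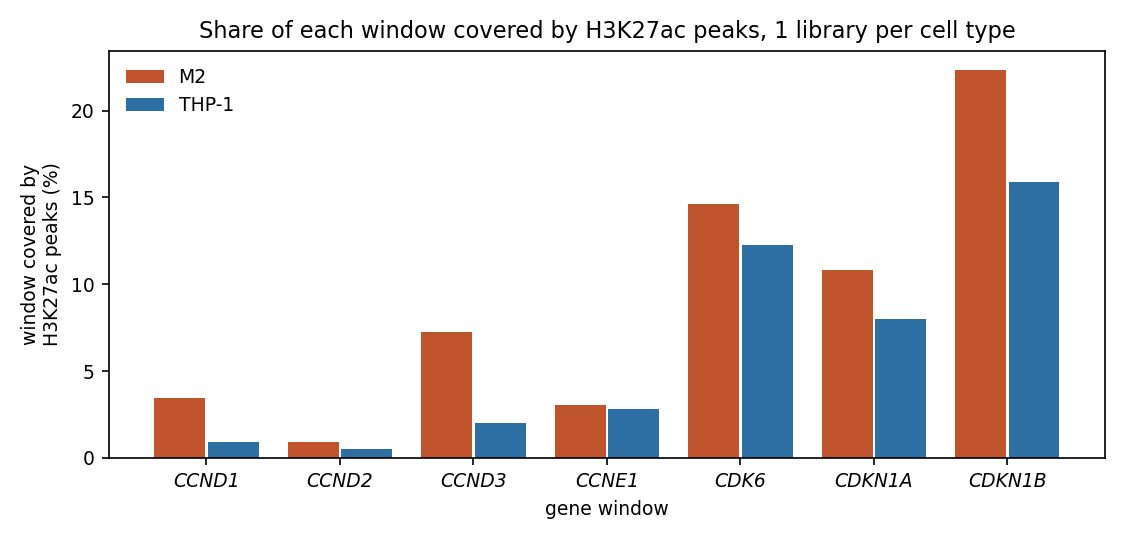
Bars give the percentage of each gene window covered by H3K27ac peaks, M2 left and THP-1 right, 1 library each and so without error bars. CDKN1B is highest in both, at 22.3% in M2 and 15.9% in THP-1, and CCND2 is lowest.

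M2 peaks of the windows had a THP-1 counterpart more often than M2 peaks at large, though not beyond the counting interval in every setting. Of the 57 M2 peaks, 26 overlapped no THP-1 peak, which is 45.6% (exact 95% binomial interval 32.4 to 59.3), against 63.0% of all M2 peaks. The M2 interval took in the share of the whole list in lists of equal length, with peaks within 1000 bp merged, and with at least 50% of a peak covered as the condition for sharing. Of the 41 THP-1 peaks, 6 overlapped no M2 peak, which is 14.6% (5.57 to 29.2), against 24.7% of all THP-1 peaks. The THP-1 interval includes the share of its whole list, so at this number of peaks no difference from it was detectable. The intervals cover counting error only, and peaks of a window share a library and a locus. Stretches covered in both cell types added up to 41.6 kb, which is 54.1% of the M2 and 76.8% of the THP-1 cover in the windows. In the whole lists these shares were 29.97% and 65.8%.

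M2 peaks of the windows were a median of 835 bp wide, against 743 bp in the whole M2 list, and THP-1 peaks 782 bp, against 661 bp. Their fold enrichment over local background, the authors' value for each peak, had a median of 4.38 in M2 (whole list 5.42) and 2.96 in THP-1 (whole list 3.67). The number of fragments over each summit was recovered from the fold and p-value of the peak. It had a median of 49 in M2 (whole list 39) and 69 in THP-1 (whole list 40). Local background, divided by the lowest of its list, was also high, with a median of 4.77 in M2 (whole list 2.39) and 10.3 in THP-1 (whole list 5.04). The window peaks thus combined more fragments with a lower fold in both lists, and the part of background in this was not tested.

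The D-type cyclin windows held 14 M2 and 6 THP-1 peaks. Of these, 8 M2 peaks were in 1 list only, which is 57.1% (28.9 to 82.3) against 63.0% of all M2 peaks. For THP-1 the number was 0 of 6, with an upper limit of 45.9% that takes in the 24.7% of all THP-1 peaks. Neither share was distinguishable from that of its whole list. CCND1, the cyclin D most often amplified in solid tumours, had 2 M2 peaks and 1 THP-1 peak. The shared site lay at chr11:69456025-69457703 in M2 (1679 bp, 2.98-fold, 146 fragments) and at chr11:69456852-69457603 in THP-1 (752 bp, 2.04-fold, 37 fragments). The THP-1 peak lay wholly inside the M2 peak. The M2 peak had a -log10 q of 22.3, and the THP-1 peak 2.61, above only 6.39% of THP-1 peaks. Scaled to the lowest background of each library, M2 had 3.03 times the THP-1 fragments (95% counting interval 2.10 to 4.47), the highest ratio of the 23 one-to-one pairs in the windows. The M2 background there was high, 20.9 times the lowest, against 9.99 times in THP-1. The second M2 peak, chr11:69489021-69490099 (4.97-fold, 105 fragments), was 31417 bp from the nearest THP-1 peak.

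CCND2, a cyclin D prominent in blood cells, carried little H3K27ac in either list. It held an M2 peak of 367 bp at chr12:4398359-4398725 (4.93-fold, 16 fragments) and a THP-1 peak of 537 bp at chr12:4398581-4399117 (2.47-fold, 35 fragments). These overlapped by only 145 bp. Scaled M2 fragments were 0.351 of the THP-1 value (0.181 to 0.650), while the background was at the lowest of its list in M2 and 7.68 times the lowest in THP-1. A further M2 peak, chr12:4430423-4430960 (3.81-fold, 26 fragments), was 31305 bp from the nearest THP-1 peak. At a -log10 q of at least 10 no peak of the CCND2 window remained in either list.

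CCND3, the third D-type cyclin and broadly used in haematopoietic cells, had the widest window and the most peaks of the cyclins. The 10 M2 peaks of its window covered 11.6 kb, and the 4 THP-1 peaks 3.22 kb. All 4 THP-1 peaks overlapped an M2 peak, and 6 M2 peaks overlapped no THP-1 peak, a share of 60% (26.2 to 87.8), near the 63.0% of all M2 peaks. The widest M2 peak, chr6:41887975-41890150, was 2176 bp (8.56-fold, 190 fragments) and met a THP-1 peak of 776 bp at chr6:41889315-41890090 (1.82-fold, 134 fragments). The local background there was 9.19 times the lowest of its list in M2 and 41.5 times in THP-1.
The M2-only peak of highest fold in the CCND3 window lay at chr6:41937562-41939097. It was 1536 bp wide, 13.5-fold over background with 64 fragments, above 95.2% of M2 peaks by fold and 28300 bp from the nearest THP-1 peak. The highest THP-1 fold, 2.98, belonged to a 398 bp peak at chr6:41978194-41978591 with 93 fragments, whose M2 counterpart had 51 fragments. At this site scaled M2 fragments were 0.421 of the THP-1 value (0.293 to 0.598), while the other 3 pairs had ratios of 1.09, 1.08 and 1.14 with intervals that include 1. In all 4 CCND3 pairs the M2 peak exceeded its partner in width. Without scaling, those 3 ratios were 1.42, 1.41 and 1.48, and 2 of their intervals lay above 1, so whether an interval included 1 depended on the scaling. Background, relative to the lowest of each list, was 4.51, 2.61 and 5.77 times as high in THP-1 as in M2 at those 3 pairs. Its part in the ratios was not tested. The ratio of cover was 26.1 at a -log10 q of at least 10, where only 1 THP-1 peak of the window, the 398 bp one, passed that limit.

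CDK6, the kinase that pairs with D-type cyclins in haematopoietic cells, had the largest H3K27ac domain of the 7 windows. The 25 M2 peaks covered 42.5 kb and the 20 THP-1 peaks 35.5 kb, and 26.8 kb lay inside peaks of both. In M2, 12 peaks were M2-only, which is 48.0% (27.8 to 68.7) against 63.0% of all M2 peaks. In THP-1, 3 peaks were THP-1-only, which is 15% (3.21 to 37.9) against 24.7% of all THP-1 peaks. Both intervals include the share of the whole list. The stretch of most cover was the same in both cell types. Another stretch, chr7:92406248-92413293, had 6.59 kb of THP-1 cover and 1.48 kb of M2 cover. Most M2-only peaks lay between the broad peaks shared by both lists.

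**Figure D3:**
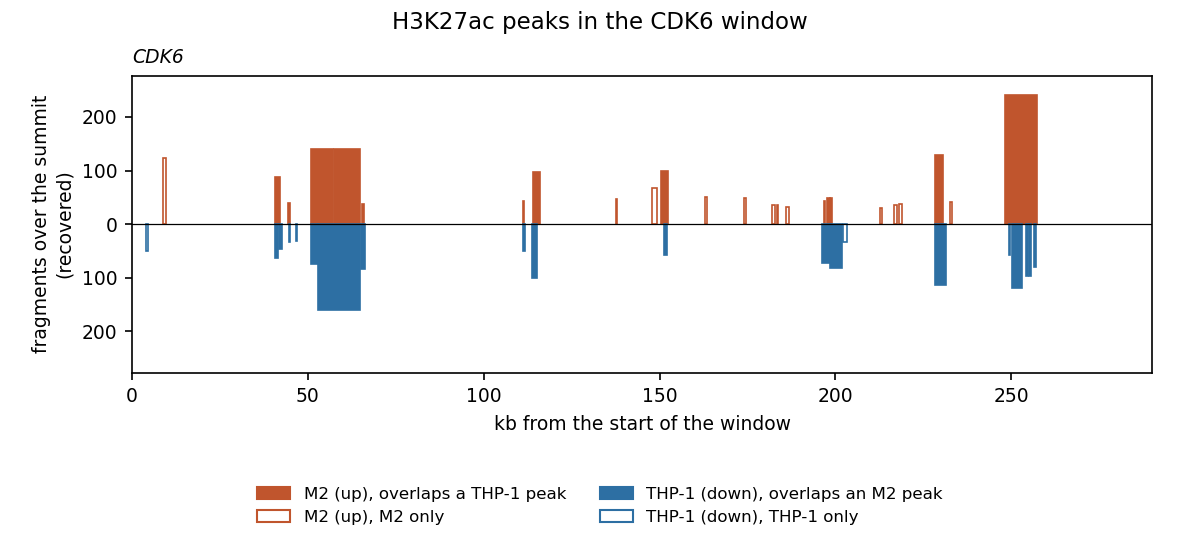
Peaks of the CDK6 window by distance from the window start in kb, M2 above and THP-1 below the line, with bar width the peak and bar height the recovered fragments over its summit, not scaled between libraries. Broad filled peaks of both lists face each other left of centre and at the right, and most of the 12 open M2-only peaks lie between them.

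The CDK6 stretch with the most covered sequence was alike in extent. M2 had peaks of 6396 bp at chr7:92260780-92267175 (11.1-fold, 141 fragments) and 7345 bp at chr7:92267563-92274907 (6.60-fold, 140 fragments), ranked 185 and 112 by width among 56420. THP-1 covered most of the same stretch with a peak of 11833 bp at chr7:92262962-92274794 (4.70-fold, 160 fragments), which ranked 4 by width among 31444. A THP-1 peak of 1938 bp at chr7:92260848-92262785 (4.82-fold, 75 fragments) lay just before it. After peaks within 12.5 kb were joined, the M2 region chr7:92250553-92275940 held 5 peaks over 16.4 kb, rank 206 of 25897 M2 regions by covered sequence. The THP-1 region chr7:92250660-92276323 held 7 peaks over 17.5 kb, rank 43 of 17061. M2 covered 0.957 times as much as THP-1 inside the M2 bounds.

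The upper end of the window was also covered in both cell types. M2 had a single peak of 9216 bp at chr7:92458186-92467401 (5.82-fold, 241 fragments), the widest M2 peak of the 7 windows and rank 49 in its list. THP-1 had 5 separate peaks over 5.30 kb inside those bounds, the widest 2956 bp at chr7:92460203-92463158 (3.34-fold, 120 fragments). The highest THP-1 fold of the window, 5.83, lay in a 2070 bp peak at chr7:92406248-92408317. With the adjoining 3436 and 1085 bp peaks it formed a joined THP-1 region, with a cover of 1.48 kb by M2 and 6.59 kb by THP-1, a THP-1 over M2 ratio of 4.45.

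The middle of the CDK6 window held shared and M2-only peaks. The joined M2 region chr7:92347549-92409031 held 11 peaks over 8.84 kb, of which 7 overlapped no THP-1 peak (63.6%, near the 63.0% of all M2 peaks), and THP-1 peaks covered 3.25 kb inside it. The M2-only peak of highest fold in the window, chr7:92357859-92359346 (5.29-fold, 68 fragments), lay 2036 bp from the nearest peak of the other list. Peaks called in THP-1 alone were a 390 bp peak at chr7:92214056-92214445 (3.10-fold, 51 fragments), a 403 bp peak at chr7:92256606-92257008 (2.42-fold, 31 fragments) and a 1085 bp peak at chr7:92412209-92413293 (2.52-fold, 34 fragments). At the 7 one-to-one pairs of CDK6 the scaled M2 fragments ranged from 0.338 to 1.33 times the THP-1 value, with a median of 0.744.

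CCNE1, the cyclin E that activates CDK2, had the ratio of cover nearest to 1, at 1.09, with the peaks and windows as given. It held 2 peaks in each list, and each overlapped 1 peak of the other. The wider was 961 bp at chr19:30301510-30302470 in M2 (7.87-fold, 83 fragments) and 740 bp at chr19:30301534-30302273 in THP-1 (2.73-fold, 72 fragments), with summits 52 bp apart. The narrower was 568 bp at chr19:30302988-30303555 in M2 (5.30-fold, 24 fragments) and 663 bp at chr19:30303045-30303707 in THP-1 (2.96-fold, 31 fragments), with summits 60 bp apart. Scaled M2 fragments were 0.884 (0.637 to 1.23) and 0.594 (0.333 to 1.05) of the THP-1 values, and both intervals include 1. M2 covered 1.53 kb and THP-1 1.40 kb, and once peaks within 1000 bp were merged the ratio was 0.941. It was 0.685 in lists of equal length and 2.09 with the window widened by 50 kb, and CDK6 was nearer to 1 in both.

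CDKN1A, which encodes p21, held shared peaks and peaks called in either list alone. The 12 M2 peaks of its window covered 8.67 kb and the 9 THP-1 peaks 6.41 kb, and 6 M2 peaks and 3 THP-1 peaks had no counterpart. The 6 M2-only peaks of 12 are 50% (21.1 to 78.9), an interval that includes the 63.0% of all M2 peaks. The 3 THP-1-only peaks of 9 are 33.3% (7.49 to 70.1), an interval that includes the 24.7% of all THP-1 peaks. The widest M2 peak, 1498 bp at chr6:36646577-36648074 (4.37-fold, 205 fragments), had 1.87 times the scaled fragments of its THP-1 counterpart (1.45 to 2.44), a 359 bp peak at chr6:36647511-36647869 (1.73-fold, 84 fragments). Around it M2 had 3 peaks with no THP-1 overlap, at chr6:36645756-36646167, chr6:36648478-36649039 and chr6:36650321-36650697, with 63, 89 and 82 fragments.
The other 5 CDKN1A pairs had fewer scaled fragments in M2 than in THP-1, with ratios from 0.155 to 0.511. In 4 of them the interval lay below 1, and at chr6:36618044-36618679, with 16 M2 and 24 THP-1 fragments, it included 1. The lowest was at chr6:36665174-36666282 in M2 (30 fragments) and chr6:36665771-36666552 in THP-1 (148 fragments), where the interval was 0.101 to 0.231. The background at that site was 2.85 times the lowest of its list in M2 and 46.1 times in THP-1, and its part in the ratio was not tested. The highest M2 fold, 8.89, lay at chr6:36668208-36669299 (46 fragments), and its THP-1 counterpart at chr6:36668214-36669494 was the widest THP-1 peak of the window (1281 bp, 5.19-fold, 69 fragments). The highest THP-1 fold, 5.70, belonged to the THP-1-only peak chr6:36660559-36661304 (53 fragments), 508 bp from an M2 peak. The highest fold of an M2-only peak, 6.15, was at chr6:36612042-36612524 (51 fragments). Within the p21 window the direction of the shared summits was therefore not uniform.

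CDKN1B, which encodes p27, the inhibitor of resting cells, was covered by broad peaks in both lists. The 4 M2 peaks of its window covered 8.93 kb and the 4 THP-1 peaks 6.36 kb, and every one of these 8 overlapped a peak of the other list. The widest M2 peak, 4641 bp at chr12:12868999-12873639 (8.11-fold, 115 fragments), ranked 589 by width among the 56420 M2 peaks. It overlapped THP-1 peaks of 1439 bp at chr12:12868480-12869918 (2.23-fold, 78 fragments) and 2004 bp at chr12:12870457-12872460 (2.98-fold, 101 fragments). The M2 peak of highest fold in the CDKN1B window, chr12:12848664-12850287 (13.7-fold, 80 fragments), reached only 287 bp into it, and its summit and its THP-1 counterpart lay outside.
Further along, M2 peaks of 2831 and 1172 bp met THP-1 peaks of 2025 and 893 bp. The M2 values were 133 and 56 fragments and the THP-1 values 84 and 54. The scaled M2 to THP-1 ratios were 1.21 (0.917 to 1.62) and 0.795 (0.537 to 1.18), and both intervals include 1. The widest THP-1 peak of the window was the one of 2025 bp at chr12:12875960-12877984, and the highest THP-1 fold, 4.78, was that of the 893 bp peak at chr12:12879006-12879898.

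**Figure D4:**
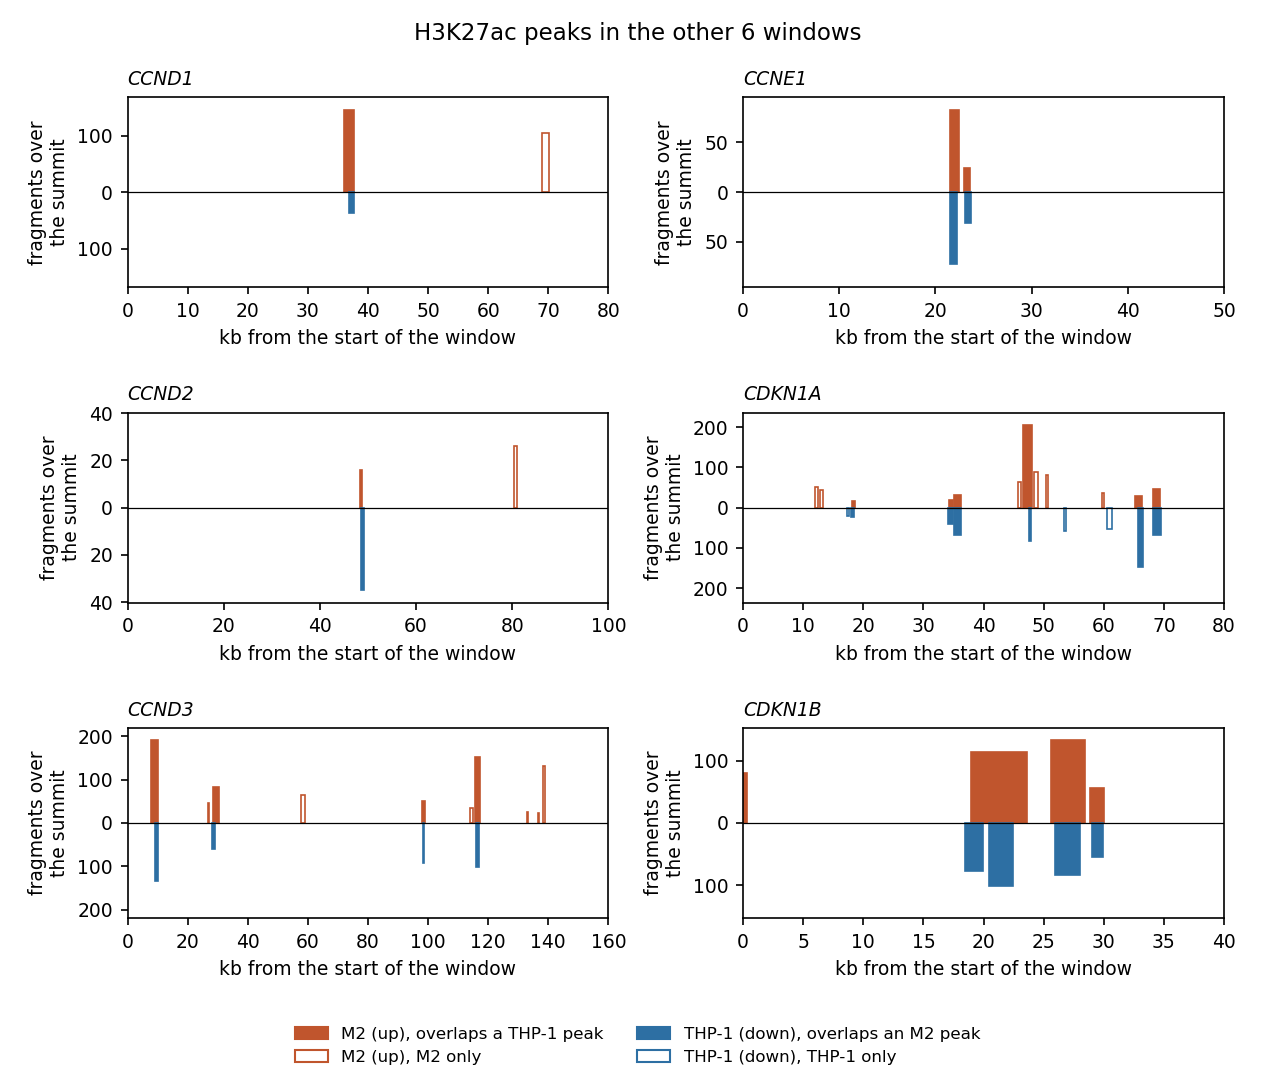
Peaks of the other 6 windows by distance from the window start in kb, M2 above and THP-1 below the line, drawn as for CDK6 with a separate height axis per gene in unscaled recovered fragments. CCNE1 and CDKN1B show filled peaks facing each other, CCND3 shows 6 open M2-only peaks, and CDKN1A shows open peaks on both sides.

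In 23 pairs the M2 and the THP-1 peak each had the other as its sole overlap. There, scaled summit fragments had a median M2 to THP-1 ratio of 0.744. Over all 15905 such pairs of the lists with a solution it was 0.935. M2 was higher in 7 of the 23 pairs (30.4%), against 45.1% of all pairs. Intervals lay wholly below 1 in 10 pairs, wholly above 1 in 2 and included 1 in 11. Without scaling, ratios are 1.30 times higher, the median was 0.970 at window pairs and 1.22 over all pairs, and 4 pairs (2 of CDK6, 1 of CCNE1 and 1 of CDKN1B) moved to above 1. Unscaled intervals lay wholly below 1 in 8 pairs and wholly above 1 in 6. The intervals hold counting error of the fragments only and take the scaling as known. THP-1 background was the higher in 22 of the 23 pairs, by a median of 2.88 times, against 83.6% and 2.12 times over all pairs, and the exception was CCND1. The pairs leave out sites called in 1 list only, where the other library has no value. They hold 23 of the 31 M2 window peaks that overlap a THP-1 peak. Shared peaks outside such pairs were left out too. Among these were the broad M2 peaks of CDK6 (6396, 7345 and 9216 bp) and of CDKN1B (4641 bp), so the median does not describe those sites.

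**Figure D5:**
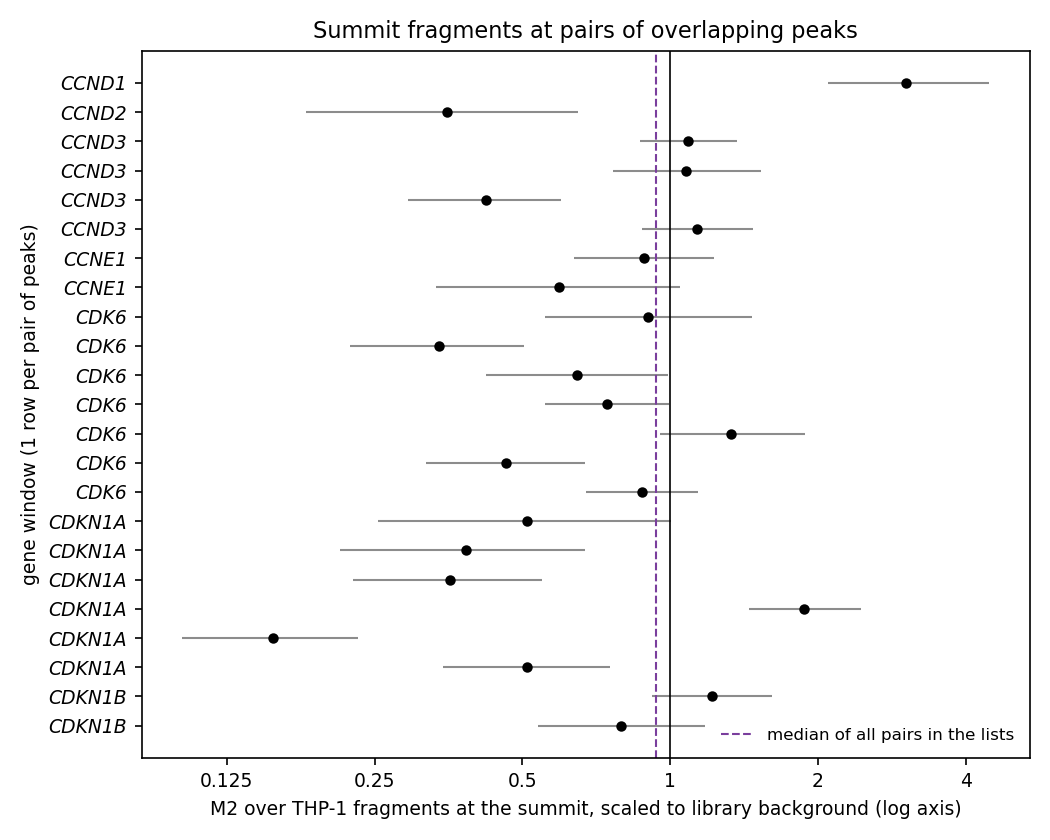
Each row is a pair of overlapping peaks, ordered by gene window and position, with the M2 over THP-1 ratio of scaled summit fragments as a point and its 95% counting interval as a line on a log axis. CCND1 stands highest at 3.03, 5 of the 6 CDKN1A pairs lie below 1, and the dashed line marks the median of all pairs, 0.935.

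Summits of the 23 pairs were a median of 82 bp apart, against 78 bp over all pairs, and 14 lay within 200 bp (60.9%, against 74.1% of all). M2 had the greater width in 14 of 23 pairs (60.9%, against 69.1% of all). In the CDK6 window M2 had it in 3 of 7.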

How the data were processed

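Formaldehyde-fixed chromatin was sheared by sonication and sequenced as paired ends, per the labels' protocols. Per the submitters' processing notes, the tools were Bowtie2 and MACS2 2.1.0 and the build was hg19. The sources used here do not say whether the input libraries were the control for MACS2. The lists have no header and were read in narrowPeak order, checked on the values. Fold enrichment is a ratio over local background, deposited by the authors. Each peak also carries the authors' own -log10 p-value and -log10 q-value. The score column deposited by the authors was not used further.

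Members were chosen by overlap of at least 1 bp with the windows. The members, lists and windows were chosen with earlier results of these data known. The text names, per window and list, the widest peak, that of highest fold, the joined region of most cover and the peak in 1 list only of highest fold, and further peaks chosen after their values were seen. Cover was clipped to the window, and peaks within 12.5 kb were joined for regions. Bins of 100 kb tiled 23 chromosomes, Y left out. Shares carry exact (Clopper-Pearson) 95% intervals.

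Fragments over each summit were solved from fold, taken as pileup plus 1 over background plus 1, and a Poisson p-value (tolerance 0.001). With the M2 pileup scaled by 0.842 and THP-1 unscaled, M2 peaks had a single solution in 99.8% and THP-1 peaks in 100%. The lowest background, in units of this pileup, was 1.94 in M2 and 1.77 in THP-1. For the scaled values, fragments were multiplied by the pileup scale of their list (0.842 in M2, 1 in THP-1). They were then divided by the lowest background of that list. These are inferences, not counts the authors gave. Overlaps were computed in Python, although bedtools had been planned, and overlap and recovery were tested on simulated data. Python 3.11.15 with numpy 2.4.6, pandas 2.3.3 and scipy 1.17.1 was used. Other genes of the pathway were not analysed here.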

Additional observations from a re-analysis of the deposited data

How the results depend on the processing

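The M2 to THP-1 ratio of cover in the 7 windows was below that of the whole lists in each setting tried, between 1.16 and 1.57 with all 7 windows. The share of peaks in 1 list only was likewise below that of its whole list in each setting for both lists, as a point value. The M2 interval took in the whole-list share in 3 settings: lists of equal length (18.6 to 53.2, against 51.0%), peaks merged (29.1 to 60.1, against 57.4%) and 50% covered (49.3 to 75.6, against 74.5%). The THP-1 interval left it out only with widened windows (4.53 to 24.3, against 24.7%). Ratios count as moved past 1.5 times and shares past the interval of the first value. With only peaks whose -log10 q reached 10, 33 M2 and 23 THP-1 peaks were left and the CCND3 ratio was 26.1, while CCND1 and CCND2 gave no value because no THP-1 peak was left. In lists of equal length there were 32 M2 peaks, 36.6% of THP-1 peaks were in 1 list only (40.4% of all), the ratios were 0.685 at CCNE1, 0.970 at CDK6 and 0.878 at CDKN1A, and CCND2 lost its M2 peaks. The CCNE1 ratio was 0.941 with peaks within 1000 bp merged and 2.09 with windows widened by 50 kb. With at least 50% of the peak covered as the condition for sharing, 63.2% of M2 window peaks were in 1 list only, against 74.5% of all M2 peaks. Without the CDK6 window, a setting added after the data were seen, 32 M2 and 21 THP-1 peaks covered 34423 bp in M2 and 18683 bp in THP-1. Where a value changed, the cause was not tested beyond what the setting removes. No paired analysis was possible because each group has 1 library and no test was made. Lists hold no reads, and a site without a peak is not shown to lack the mark.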
